A study of Rattus norvegicus with 36 samples.

Results

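Exons that gained DNA methylation while fetal gonocytes became neonatal spermatogonia were described in male rats. The exon regions were chosen from the authors' annotation of the regions that gained methylation: a region was taken where its detailed annotation names an exon, and exon 1 of a transcript was separated from later exons by the exon number given there. This gave 3418 exon regions of 54759 gain regions, or 11.9% of the 28613 gain regions annotated to a gene. Exon 1 held 171 of them (5%, 95% Wilson interval 4.32 to 5.79%) and later exons held 3247. The 3220 regions whose transcript had a gene symbol (94.2%) fell in 2478 genes. The authors' annotation keeps promoters, transcript ends and untranslated ends as classes of their own, so exon regions here are the exonic rest, and gains near the start of exon 1 may be counted as promoter.

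Germ cells came from Sprague-Dawley rats with a germ-cell-specific green fluorescent protein (GFP-GCS genotype), were sorted by that fluorescence, and had no treatment. Bisulfite sequencing of regions captured with a rat methylome panel covered 9 stages with 4 samples each, 36 in all: GD16, GD18 and GD20 Gonocytes, PND5 spermatogonia, spermatozoa, and Spermatids R1-8, R9-12, R13-14 and R15-17. Whether the 4 samples of each stage were separate animals is not in the labels. The region lists give the mean of a stage, so the levels below carry no SD and no n, the read depth behind them is unknown, and no test over samples was possible. Expression of marker genes was not measured, and other cells left after the sort were not tested.

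In male mammals the germ line is stripped of most of its DNA methylation in the embryo. In mouse, the methyltransferases Dnmt3a, Dnmt3b and Dnmt3c with their cofactor Dnmt3l write it anew in gonocytes, which have left the cell cycle, and piRNAs direct part of it to transposons. Most of a gene body ends up methylated, while promoters rich in CpG, the base pair step at which mammals methylate cytosine, mostly stay free of it. Exon 1 lies next to the promoter, and inner exons lie in the transcribed body.

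Promoters of a few genes with a gain in exon 1 are shown for their sequence context. The genome of the build of the lists was not used here, so the exon regions themselves are not printed. RefSeq promoters of assembly GRCr8 (250 bases before to 50 after the transcript start) are given for 4 genes chosen from those named below, whose exon 1 gained early or late, with each CpG (the motif CG, which reads alike on both strands) in capitals. The position of the measured region relative to these windows is not known, since the builds may differ. Actl7a, Or2aa1 and Zbtb1 are annotated with a single exon. Whether transcription begins at their annotated start was not tested, so their windows may not be the promoters in use.
Actl7a (chr5:76243922-76244221, plus strand): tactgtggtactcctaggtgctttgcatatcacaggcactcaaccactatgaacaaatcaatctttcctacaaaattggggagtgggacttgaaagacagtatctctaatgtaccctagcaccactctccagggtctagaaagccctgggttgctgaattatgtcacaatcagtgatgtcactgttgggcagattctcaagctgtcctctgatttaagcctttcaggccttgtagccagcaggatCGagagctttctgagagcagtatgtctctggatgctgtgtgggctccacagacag
Or2aa1 (chr10:44875167-44875466, minus strand): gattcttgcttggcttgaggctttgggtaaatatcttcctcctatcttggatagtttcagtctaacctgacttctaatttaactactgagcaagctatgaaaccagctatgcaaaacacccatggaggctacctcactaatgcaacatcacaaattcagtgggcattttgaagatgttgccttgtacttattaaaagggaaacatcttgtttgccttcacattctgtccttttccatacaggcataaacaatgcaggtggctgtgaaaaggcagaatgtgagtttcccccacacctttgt
Zbtb1 (chr6:100844840-100845139, plus strand): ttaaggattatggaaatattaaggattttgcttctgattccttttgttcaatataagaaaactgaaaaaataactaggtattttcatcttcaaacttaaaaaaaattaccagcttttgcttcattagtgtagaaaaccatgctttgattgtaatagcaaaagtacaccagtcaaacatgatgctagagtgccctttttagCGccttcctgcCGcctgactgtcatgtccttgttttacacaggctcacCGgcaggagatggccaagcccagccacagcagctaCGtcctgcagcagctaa
Tdrd6 (chr9:24841204-24841503, plus strand): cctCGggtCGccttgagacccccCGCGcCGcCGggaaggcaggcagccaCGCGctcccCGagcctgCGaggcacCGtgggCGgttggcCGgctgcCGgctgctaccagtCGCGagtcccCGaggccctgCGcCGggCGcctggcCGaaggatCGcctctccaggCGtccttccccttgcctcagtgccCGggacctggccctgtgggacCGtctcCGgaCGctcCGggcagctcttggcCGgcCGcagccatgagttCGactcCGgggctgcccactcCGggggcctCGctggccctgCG
The windows hold 1, 0, 4 and 35 CpGs. Of all 33469 RefSeq promoters, 94.5% hold at least 1 CpG, 69.3% hold at least as many as Zbtb1 and 6.13% at least as many as Tdrd6, and the median is 7. The promoter of Pde6a, a further gene with a late gain in exon 1, holds 2 CpGs and is not printed. Promoters could be matched to 116 of 153 genes with an exon 1 region (75.8%), too few for a summary over exon 1 genes, so none is given.

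The authors placed each gain region in 1 of 3 groups: early regions were listed as gaining from GD18 to GD20, late ones from GD20 to PND5, and continuous ones at both steps. The groups were made from the levels described below, and the steps share the GD20 stage, so group and level are not independent evidence of each other. Listed gains were at least 30 percentage points by construction. An early region has no PND5 level and a late region no GD18 level, because they were not listed at that step. Exon 4 of Ccnd1, a cyclin gene in the continuous group, had no PND5 level either, and exon 4 of Irx6, in the late group, had no level at all.

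Where a level was listed, exon regions were nearly unmethylated at GD18, intermediate at GD20 and nearly fully methylated at PND5. Their median level was 5.3% at GD18 in 2619 regions, none of them late. It was 48.7% at GD20 in 3417 regions (quartiles 35.2 and 58.7%). At PND5 it was 96.7% in 3055 regions, none of them early (quartiles 93.1 and 98%). A gain from GD18 to GD20 was listed for 2619 exon regions (76.6%), against 81.2% of all gain regions. From GD20 to PND5 it was listed for 3055 (89.4%), against 85.2%. The median gains were 47.9 and 47.5 points. In the authors' deposited table the adjusted p-values of these regions had medians of 5.39e-12 and 2.53e-12 and reached at most 0.0494 and 0.0147.

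Exon regions leaned to the late group when set against all gain regions, as did regions that were intergenic or without annotation. They numbered 361 early regions (10.6%, against 14.8% of all gain regions), 2258 continuous ones (66.1%, against 66.5%) and 799 late ones (23.4%, against 18.8%). Exons accordingly made up 7.42% of the annotated early regions, 11.5% of the continuous and 19.3% of the late ones. The Wilson interval of the late share of exons, 22.0 to 24.8%, covers counting error only and treats regions as independent, which regions of a gene are not. Differences between sets of regions are therefore given as descriptions, with no test.

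Intron regions differed in the opposite direction. Of 21870 intron regions 12.1% were late and 18.7% early, and their median GD20 level was 54.7%. Exon regions were also denser in CpG, with a median of 2.82 CpGs per 100 bp against 1.99 in introns. In both it was highest in the densest band, and exons were above introns in each of 6 bands of density. The late share was 21.1% in exons and 8.76% in introns below 1.5 CpGs per 100 bp, and 30.9% and 21.8% at 6 or more. Within the 1514 genes that held both kinds, the median GD20 level of the exon regions was below that of the intron regions in 916 (60.5%) and above it in 595 (39.3%), with a median difference of -4.45 points (quartiles -15.3 and 6.5). Promoter-TSS regions, at 27.5% late and a median GD20 level of 47.4%, lay nearer to exons. The 26146 intergenic or unannotated regions were close to exons, with 23.5% late, 12.3% early and a median GD20 level of 48.3%. The late lean was thus not particular to exons, and among the classes compared here introns stood apart. Transcript ends and untranslated ends were not compared.

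Exon 1 regions stood lower at GD20 than later exon regions. Only 16 genes with a symbol held both, so the classes lie mostly in different genes. The 171 exon 1 regions had median levels of 39.2% at GD20 (quartiles 24.2 and 52.4%) and 95% at PND5. In later exons the medians were 49.2% (36.0 and 59.1%) and 96.8%. The late group held 70 of the exon 1 regions (40.9%, interval 33.8 to 48.4%) and the early group 6 (3.51%). Later exons were 22.5% late (21.1 to 23.9%) and 10.9% early. Exon 1 regions had more CpGs but were longer, with medians of 12 CpGs and 544 bp against 10 and 390 in later exons, and were therefore less dense, at 2.46 against 2.84 CpGs per 100 bp. The difference in late share was 33.8 points among regions at or above the median density of exon regions, where 58.5% of exon 1 regions were late, and 10.1 points among those below it. Single-exon transcripts held 73 of the exon 1 regions, with 42.5% late, and longer transcripts 98, with 39.8% late.

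**Figure D1:**
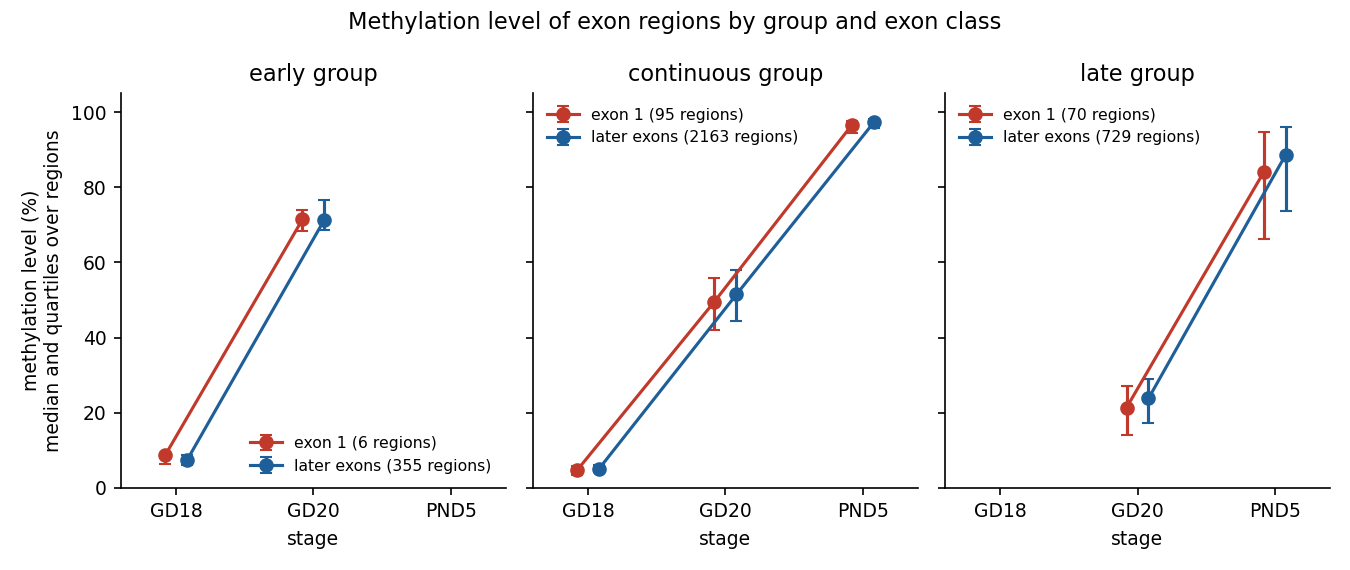
Methylation level in percent at GD18, GD20 and PND5 for exon 1 (red) and later exons (blue) in the early, continuous and late groups; points are medians over regions and bars run from the lower to the upper quartile, which is spread among regions and not among samples. Within a group both classes take nearly the same course, such as from 4.7 or 5.1% through 49.6 or 51.5% to 96.6 or 97.3% in the continuous group. The groups were made from these levels, which limits how far the classes can differ within one.

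Within a group the levels of both exon classes were close, but the groups were made from these levels, which limits how far they can differ. Continuous regions of exon 1 stood at medians of 4.7, 49.6 and 96.6%, and those of later exons at 5.1, 51.5 and 97.3%. Late regions rose from 21.4 to 84.1% in exon 1 and from 23.8 to 88.8% in later exons.

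The late share fell as the exon number rose. It was 31.0% in exon 2 (445 regions), 30.6% in exon 3 (363), 25.8% in exons 4 to 5 (558), 18.8% in exons 6 to 10 (852), 17.9% in exons 11 to 20 (689) and 15.6% from exon 21 on (340). The median GD20 level went from 44.5% in exons 2 and 3 to 51.5% from exon 21 on. The share at 95% or more by PND5 went from 61.7% in exon 2 and 60.4% in exon 3 to 80.5% from exon 21 on. That share leaves out early regions, which have no PND5 level, so it is not independent of the late share. In introns the late share fell as well, on a lower level, from 15.5% in intron 1 to 9.14% from intron 21 on. Part of the order in exons came with the length of the transcript: exons 2 and 3 together were 13.7 points above exon 11 and later, but 6.93 points within transcripts of at least 10 exons, where exon 2 was 25% and exon 3 was 23.1% late. In those transcripts 9 of 22 exon 1 regions were late (40.9%, 23.3 to 61.3%).

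**Figure D2:**
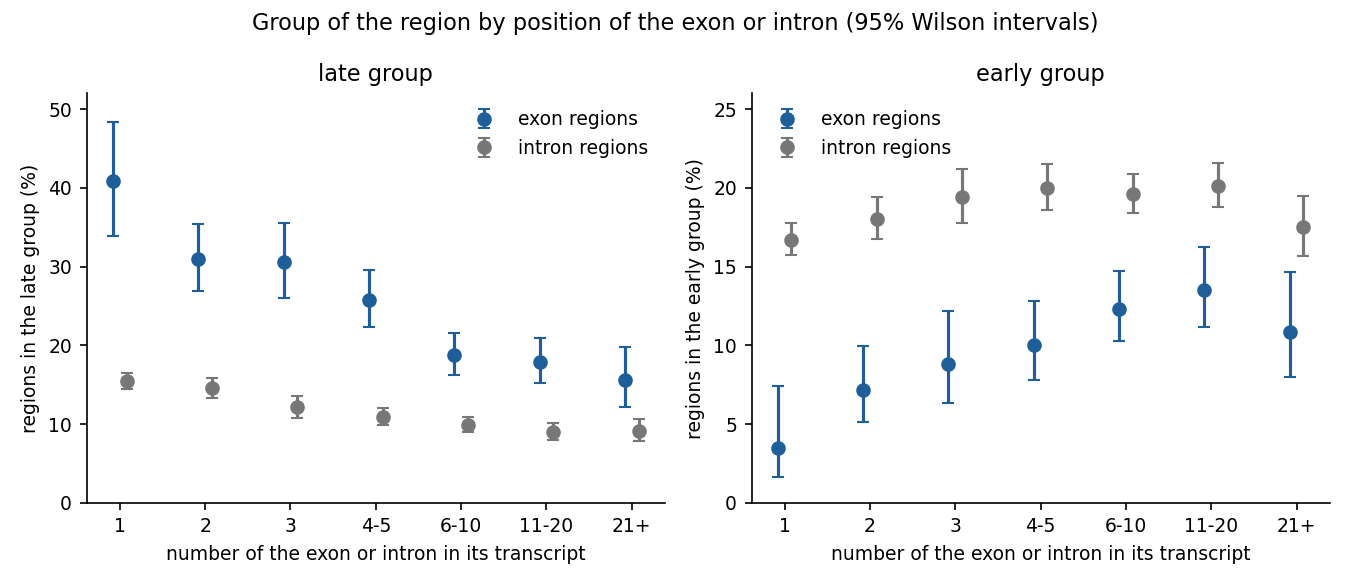
Share of regions in the late group (left) and the early group (right), in percent, by the number of the exon (blue) or intron (grey) in its transcript, with 95% Wilson intervals for counting error. The late share of exons falls from 40.9% in exon 1 to 15.6% from exon 21 on and lies above that of introns at each position, whereas the early share of exons is below that of introns at each position.

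The last exon of a transcript also leaned to the late group. Of 544 regions in the last exon of transcripts with at least 2 exons, 34.4% were late (30.5 to 38.5%) and 4.04% early, against 20.1% (18.6 to 21.6%) and 12.3% in inner exons. In transcripts of at least 10 exons, where a last exon cannot have a low number, the shares were 26.3% (20 to 33.8%) of 152 last-exon regions and 17.4% (15.8 to 19.1%) of 1999 inner ones. The median density was 2.75 CpGs per 100 bp in all last-exon regions, close to the 2.82 of all exon regions.

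Regions of the same exon did not always move together. Of 3314 exons with a region, 86 held more than 1, with a median range of 14 points between the GD20 levels of an exon. In 49 of the 86 (57.0%) all regions belonged to 1 group. Since 66.1% of all exon regions were continuous, unrelated regions also often share a group. How often the group sizes alone would give this was not computed. Exon 5 of Bsn, which encodes the presynaptic scaffold Bassoon, held 4 regions with GD20 levels of 9.2, 34.3, 48.6 and 58.7%. Its lowest region, with 23 CpGs, had only reached 50% at PND5, whereas the highest had reached 97.2%. Exon 5 of Map1b, a microtubule-associated protein of neurons, also held 4 regions, which spanned 17.5 to 65.6% at GD20, while the PND5 levels of the gene's 5 regions lay between 96.6 and 99.5%.

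The genes with most exon regions differed in how many were late, from none of 10 in Lrp2 to 3 of 7 in Bsn. Lrp2, the endocytic receptor megalin, held its regions in 10 exons, of which 8 were continuous and 2 early. The GD20 levels of Lrp2 lay between 40.5 and 77.3%, and its PND5 levels between 96.7 and 98.7%. Lrp1, a related receptor, had 8 continuous regions with GD20 levels of 43.4 to 67.8%, and 1 late region in exon 52 that rose from 20% to 64.3%. Fat1, an atypical cadherin, held 9 regions, from a late one in exon 2 at 30.7% to an early one in exon 8 at 81.9%. In Lama5, a laminin chain of basement membranes, 5 of 7 regions were continuous at 46.9 to 57.2%, exon 18 was early at 76.6% and exon 71 late at 25.7%. Over the 511 genes with more than 1 exon region, 252 had them all in 1 group, and the median range of GD20 levels was 17 points. What the group sizes alone would give was not computed for genes either.

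Among exon 1 regions the 8 largest gains from GD18 to GD20, 1 a gene, ended between 65.7 and 81.4%. Actl7a, an actin-like protein of the acrosome (chromosome 5, 73496442 to 73496939), went from 9.9% to 81.4%, and the olfactory receptor gene Or2aa1 (chromosome 10, 45939625 to 45939793) from 9.1% to 74.6%. Frem3, of a family of extracellular matrix proteins (chromosome 19, 31026787 to 31027400), went from 8.7% to 72.3%, though 2 further regions of the same exon stood at only 48.1 and 36.9% at GD20. Wdr81, a WD-repeat protein of endosomes, went from 8.6% to 70.6%, and Smcr8, an autophagy partner of the C9orf72 protein, from 5.7% to 67.7%. The lysozyme gene Lyz2 went on from 68.8% at GD20 to 99.2% at PND5, and the motilin receptor gene Mlnr from 66.3% to 97%.

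The 8 later exon regions with the largest gains ended between 82 and 94.5%. They are the extremes of 2518 listed gains, against 101 in exon 1, so the ranges do not compare the classes. The median gain at this step was 48.05 points in later exons and 45.4 points in exon 1. Exon 10 of Dync1li2, a light intermediate chain of cytoplasmic dynein (chromosome 19, 757501 to 757605), went from 7.4% to 92.6%. Exon 5 of Galnt2, an enzyme that starts mucin-type O-glycosylation (chromosome 19, 57090847 to 57090953), went from 9.2% to 91.5%. Exon 11 of Rnf40, a ubiquitin ligase for histone H2B (chromosome 1, 199043168 to 199043309), went from 4.8% to 85.8%, and exon 9 of Grid2ip, a scaffold of a glutamate receptor in Purkinje cells, from 6.3% to 86.9%. Exon 8 of Adamts1, a metalloprotease of the matrix, started lowest, at 1.7%, and reached 82%. These are short regions: 7 of the 8 named at this step hold 5 CpGs and Rnf40 holds 8, so few sites stand behind each level.

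From GD20 to PND5 the largest gain of an exon 1 region lay in Zbtb1, a zinc finger repressor needed for lymphocyte development. One of its regions (chromosome 6, 99414558 to 99415199, 22 CpGs) went from 14.1% to 97.6%. A second region of that exon already stood at 51.4% at GD20 and reached 97.6% as well. Exon 1 of Pde6a, the rod photoreceptor phosphodiesterase (chromosome 18, 56545062 to 56545212), went from 10.7% to 91.6%, and that of Capn3, the muscle calpain (chromosome 3, 112229034 to 112229320), from 8.6% to 88.6%. Lrrc15 and Amigo3, membrane proteins with leucine-rich repeats, went from 14.2% to 93% and from 7.9% to 83.1%. The B cell chemokine receptor gene Cxcr5 went from 22.9% to 97.8%, and the G protein gene Gnaz from 22.6% to 97.1%. A region named after the cyclin gene Ccnb2 went from 21.8% to 96.3%, but it is a single-exon alignment on chromosome 1 while RefSeq places the gene on chromosome 8, so it may be another copy.

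The later exons with the largest late gains ended between 90.2 and 99.3%. Exon 10 of Lct, the intestinal lactase (chromosome 13, 45007923 to 45008081), went from 10.1% to 98.9%. Exon 2 of Onecut1, a transcription factor of liver and pancreas (chromosome 8, 81792597 to 81792699), went from 14% to 99.3%, and exon 2 of Tshz3, a zinc finger developmental factor (chromosome 1, 92705393 to 92706152, 24 CpGs), from 13.9% to 96.8%. Exon 5 of Ceacam16, a protein of the inner ear, went from 7.3% to 95.6%, and exon 16 of the neuronal sodium channel gene Scn2a from 10.1% to 94.8%. Exon 3 of the splicing regulator gene Rbm4b ended lowest of the 8, at 90.2% after 6.8%. Few sites stand behind most of these levels. Ceacam16 and Onecut1 hold 5 CpGs, Cmtm8, Lct and Rbm4b 6 and Scn2a 7, while Erich1 holds 18 and Tshz3 24.

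**Figure D3:**
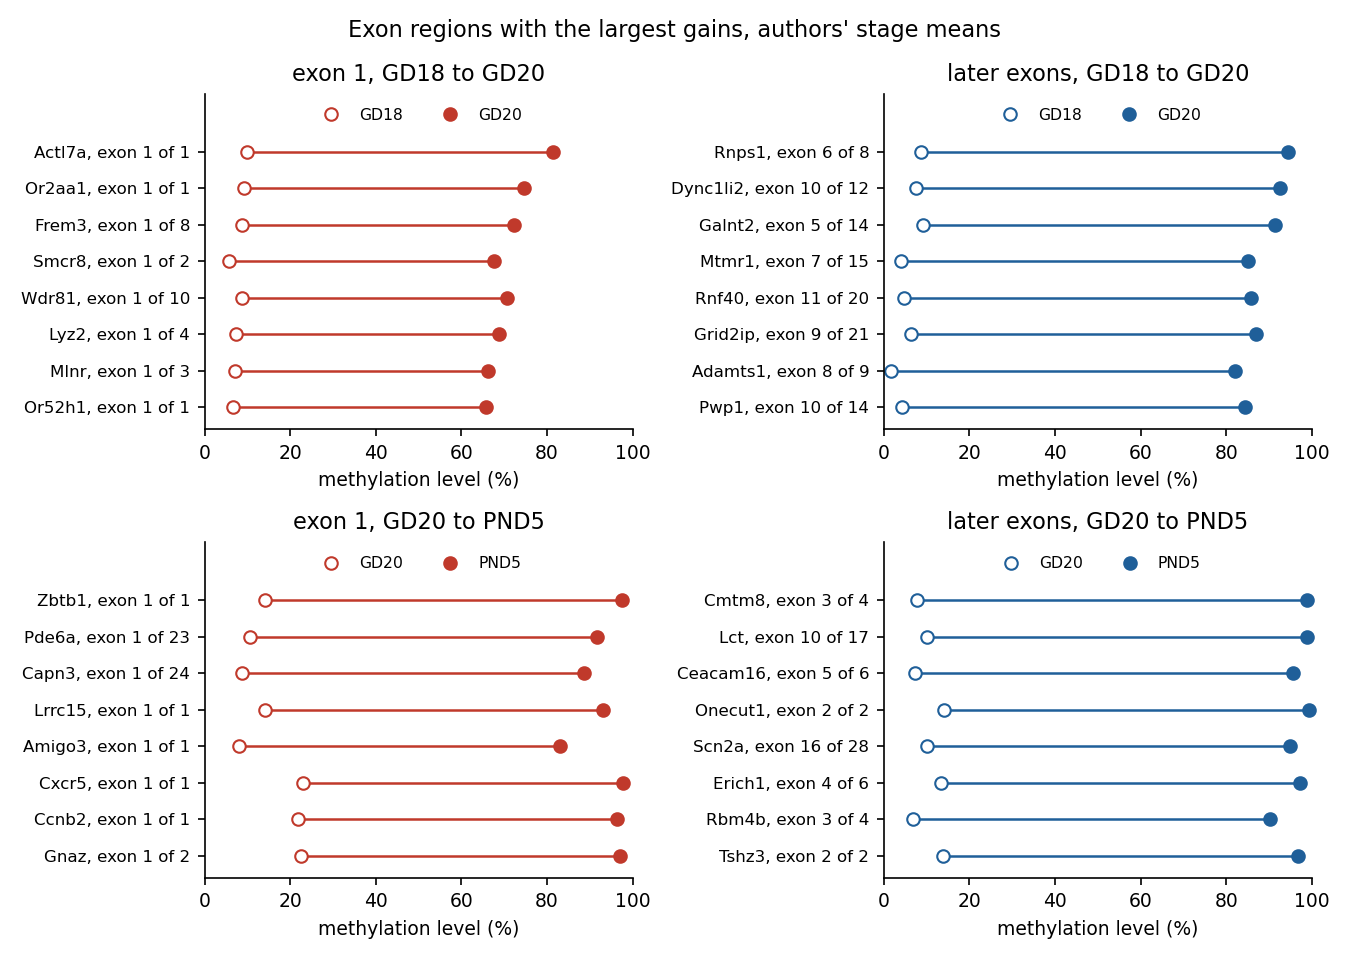
Authors' mean methylation level in percent before (open) and after (filled) each step for the 8 exon 1 regions (red) and 8 later exon regions (blue) with the largest gain, 1 region a gene and at least 5 CpGs. At GD20 the exon 1 regions end between 65.7 and 81.4% and the later exon regions between 82 and 94.5%. At PND5 the exon 1 regions end between 83.1 and 97.8% and the later exon regions between 90.2 and 99.3%. Listed gains numbered 101 in exon 1 and 2518 in later exons at the first step, and 165 and 2890 at the second. The ranges are extremes of sets of unequal size and do not compare the classes.

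At the lower limit of listing the end levels differed. Exon 2 of Cd80, a costimulatory molecule of immune cells, passed the first step with 2.9% to 33% and then reached 97.5%. Exon 8 of Ddx21, a nucleolar RNA helicase, passed the second step with 69.1% to 99.2%. Exon 1 of Mfhas1 passed it with 13.1% to 43.2%, and so was still low. Regions beyond the limit were not analysed here.

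Genes were grouped in 20 lists by symbol, and each list was set beside the 3220 exon regions with a symbol, which had a median GD20 level of 48.5% and 23.8% late. The lists are described by counts and medians only, and no list was tested. Few named members of most lists held an exon region, and the panel's coverage of the others is not known here.

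Developmental transcription factors had the lowest median GD20 level of the lists with at least 5 exon regions. Of 217 annotated members 11 held 13 exon regions, 9 of them late (69.2%, 42.4 to 87.3%) and none early, with a median of 29.0% at GD20 and 84.6% at PND5. Gli2 and Gli3, the Hedgehog effectors, rose in their last exons from 16.4% to 97.1% and from 8% to 78.6%. A second region in the last exon of Gli2 was continuous and already stood at 43.6% at GD20. Exon 2 of the forkhead gene Foxj2 rose from 12.9% to 81.3%. Irx6, an Iroquois homeobox gene, was continuous, with 5.6%, 36.8% and 95.1%. The median density of these regions was 3.74 CpGs per 100 bp, above the 2.82 of all exon regions, and the part of density in their lateness was not tested.

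Genes of the piRNA pathway and the germ line were next, with 10 exon regions in 6 of 36 genes and a median GD20 level of 31.6%. Late were 5 of the regions (50%, 23.7 to 76.3%), an interval that just includes the 23.8% of all exon regions with a symbol. In exon 1 lay 3 of the 10 regions. Exon 1 of Tdrd6, a Tudor protein of the germ granule whose CpG-rich promoter is printed above, held 2 regions, 1 late from 23.6% to 90.1% and 1 continuous with 4.2%, 37% and 92.1%. Exon 2 of Tdrd5, a related Tudor protein needed for piRNA production, rose from 20% to 86.7%, and exon 11 of Mei1, needed for meiotic DNA breaks, from 26.1% to 97.5%. Density was not high here, with a median of 1.91 CpGs per 100 bp.

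Among genes that read or write the mark, exon 6 of Dnmt3l, the cofactor of de novo methylation, was early and went from 3.1% to 64%. Dnmt1, the maintenance methyltransferase, held 3 continuous regions in exons 4, 23 and 36 with GD20 levels of 55.8, 52.6 and 43.2% and PND5 levels of 90.9, 98.4 and 96.9%. Exon 5 of Mbd3, a subunit of the NuRD repressor, was the late one of the list's 7 regions and rose from 19.1% to 89.6%. Exon 9 of Kdm1b, a histone H3 lysine 4 demethylase, passed from 5.1% through 61.7% to 95.9%.

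Imprinted genes held 6 exon regions in 3 of 26 genes, and in Igf2r, a receptor for insulin-like growth factor 2, the exons differed in time. Exons 34 and 39 were early and reached 80.4% and 67.9% at GD20, while exons 40 and 48 stood at 50.5 and 58.3% and reached 99% and 98.7% at PND5. Exon 23 of Rasgrf1, which is paternally methylated and expressed in mouse, was late and rose only from 7.8% to 64.1%. Plagl1, a zinc finger gene expressed from the paternal allele, passed from 4.3% through 38.5% to 85.5%. Levels from pooled alleles cannot tell which allele carries the mark.

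Chromatin enzymes had 39 regions in 28 of 144 genes, 12 of them late (30.8%). Exon 2 of Prdm1, a factor of germ cell specification, went from 9.4% to 85.1%, while its exon 6 reached only 45.8% from 11%. Exon 23 of Ehmt2, a histone H3 lysine 9 methyltransferase, rose from 21.3% to 91.2%, and exon 22 of the remodeller gene Ep400 was early, from 10.8% to 80.6%. Zinc finger genes, whose finger domains often lie in 1 large exon, had 56 regions in 47 of 545 genes, 16 late (28.6%), with exon 2 of Zfp516 rising from 25.5% to 99.7% after exon 1 of that gene had stood at 52.6%. Stem and germ fate genes had 18 regions in 10 genes, 6 of them late. Ret, the receptor for the niche factor GDNF, passed from 5.7% through 37.7% to 98% in exon 10, and Etv5, a self-renewal factor, from 3.7% through 39% to 94.6% in exon 4.

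Cell surface and signalling genes spread widely. Cadherins and protocadherins had 50 regions in 25 of 99 genes, 14 in exon 1 and 16 late (32.0%). Exon 1 of Pcdh9 and of Pcdhb21, neural adhesion proteins, rose from 16.7% to 84.2% and from 14.5% to 83.4%. Exon 1 of Pcdhga9 held a late region that stopped at 50% after 11.9% beside a continuous one that reached 92.4%. Ion channels had 77 regions in 50 of 177 genes, 29 of them late (37.7%, 27.7 to 48.8%), with a median GD20 level of 42.1%. The last exon of Scn10a, a sodium channel of sensory neurons (35 CpGs), rose from 15.6% to 96.3%, that of the cation channel gene Trpm3 from 17.4% to 95.2%, and exon 35 of the calcium release channel gene Itpr2 from 19.9% to 96.7%.

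Axon guidance and synapse genes had 55 regions in 40 of 156 genes and 29.1% late. Exon 9 of Sema4d, a semaphorin, rose from 15.9% to 91.6%, and exons of the kainate receptor genes Grik5 and Grik4 rose from 20.7% to 93.9% and from 27.7% to 97.3%. Wnt and TGF-beta genes had 36 regions and 25% late. In Axin2, a brake on Wnt signals, exon 1 and exon 5 were both late and went from 31.3% to 81.9% and from 25.5% to 97.5%. Exon 4 of Smad5, a mediator of BMP signals, rose from 16.4% to 92.2%. Solute carriers had 84 regions in 67 genes and 27.4% late, led by exon 2 of the zinc importer gene Slc39a6, from 11.1% to 87%, and exon 7 of Slc7a11, the cystine transporter, from 22.2% to 95.4%.

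Matrix and cytoskeletal genes followed. Extracellular matrix genes had 54 regions in 25 of 109 genes, 13 early and 8 late (14.8%, 7.70 to 26.6%, an interval that includes the 23.8% of all exon regions with a symbol), with a median GD20 level of 54.7%. Exon 3 of the collagen gene Col11a2 went from 4% to 81.8% by GD20, whereas exon 2 of Adamts4, an aggrecan-cleaving protease, waited at 17% and then reached 96%. Myosins, kinesins and spectrins had 60 regions in 31 genes, 6 early and 11 late (18.3%), with exon 31 of Plec, the linker plectin (36 CpGs), going from 19.8% to 98.4% after GD20.

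Genes of the sperm tail and the spermatid are set beside the 66.1% of all exon regions that were continuous. Axoneme and sperm tail genes had 29 regions in 21 of 150 genes, 23 continuous and 4 late. Exon 3 of Akap3, an anchoring protein of the fibrous sheath, passed from 3.6% through 35.7% to 96.6%, and exon 27 of Dync1h1, the heavy chain of cytoplasmic dynein, was early, from 5% to 69.8%. Of 7 regions in spermatid and acrosome genes 6 were continuous. Acr, which encodes the protease acrosin, passed from 1.8% through 39.6% to 100%, and Izumo1, the sperm protein that binds the egg, from 2.7% through 53.1% to 97.9%. Exon regions of olfactory receptors all lay in exon 1, since their coding sequence is a single exon, and 8 of 10 were continuous, with Or51l1 passing from 3.4% through 36.2% to 97.7%.

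Marker genes of other testis cells also held exon gains, and these are methylation levels, not amounts of those cells. Inha and Inhbb, inhibin subunits made by Sertoli cells, rose from 12.2% to 83.6% and from 37% to 94.8% between GD20 and PND5. Among blood and endothelial markers Tie1 rose from 7.3% to 84.9% in exon 12 and Vwf, von Willebrand factor, from 31.9% to 98.7% in exon 28.

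**Figure D4:**
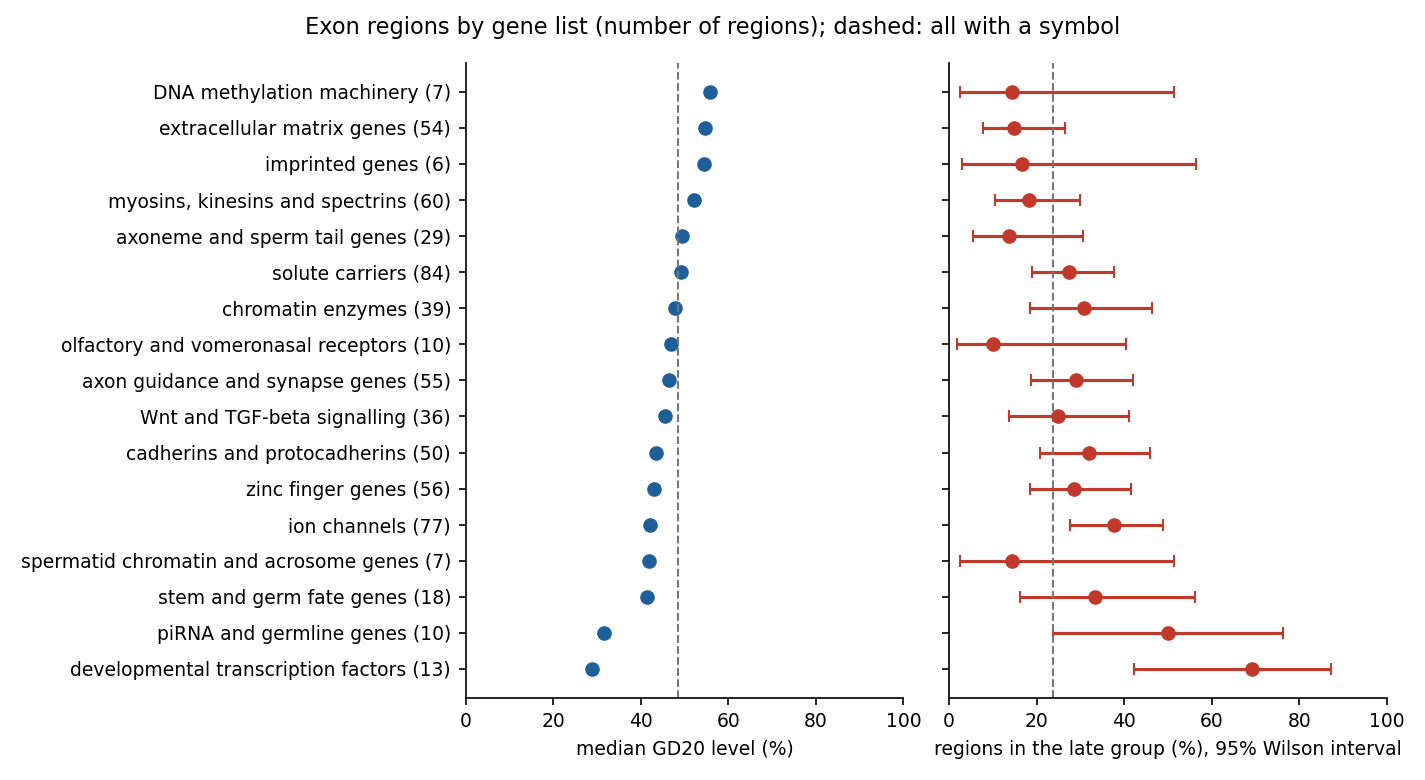
Median GD20 level in percent (left) and share of regions in the late group in percent with its 95% Wilson interval (right) for the gene lists with at least 5 exon regions, whose number is in brackets; the dashed lines mark all exon regions with a symbol. The lists run from developmental transcription factors, at 29.0% and 69.2% late, to the DNA methylation machinery and extracellular matrix genes, with medians above 54%, and most intervals include the dashed line.

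Most exon regions were filled by PND5, but 49 of the 3055 with a PND5 level stayed below 50% (1.60%, against 1.43% of all gain regions), and 67.5% reached 95% or more (against 64.6%). All 49 were late, as the listed gains of exon regions require. Early regions have no PND5 level, and continuous exon regions with a PND5 level gained at least 30 points at each step. Over all gain regions, 3 continuous ones were below 50% at PND5. The 49 exon regions had a median of 9.8% at GD20 and 45.5% at PND5 and a median density of 3.46 CpGs per 100 bp. Exon 1 of Barhl1, a homeobox gene of neurons, had the lowest PND5 level in exon 1, at 36.6% after 3.7%. Exon 2 of Spata13, a guanine nucleotide exchange factor, stood at 35.4% after 1.5%, exon 8 of the energy metabolism coactivator gene Ppargc1a at 38.9% after 4.5%, and exon 4 of the tubulin gene Tubb5 at 38.6% after 6.4%. Exon 1 of Mrgprd, a receptor of pain neurons with 20 CpGs, stood at 40.4% after 4.5%. In exon 1, 4.24% of regions with a PND5 level were below 50%, and in later exons 1.45%.

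A few exons had carried methylation before and lost it. The list from GD16 to GD18, in which all regions fell, overlapped 11 exon regions (0.322%, against 0.299% of all gain regions). Their GD16 levels were 32.4 to 43.8%, and the 10 with a PND5 level were all higher at PND5 than at GD16. Adcy10, the soluble adenylyl cyclase of sperm, passed from 38.6% through 3.0% and 37.2% to 94.3% in exon 12. Nop53, a ribosome assembly factor, took the same course in exon 9, with 39%, 3.9%, 48% and 98.7%, as did exon 3 of the deubiquitinase gene Usp12, with 33.8%, 1.9%, 58% and 100%. Exon 3 of Tymp, thymidine phosphorylase, came back less, with 37.6%, 6.3%, 32.3% and 79.5%. In Got2, the mitochondrial aspartate aminotransferase, exon 2 fell from 37.7% to 6.7% and stood at 71.8% at GD20.

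A small share of the exon regions was listed again in spermatids. The 4 spermatid lists, which take differences of at least 10 points, overlapped 234 exon regions by at least 1 bp (6.85%, against 7.72% of all gain regions). Neighbouring lists share a stage, so their directions are not independent of each other. In order they held 58 (1.70%, against 2.37%), 137 (4.01%, against 4.19%), 123 (3.60%, against 3.59%) and 35 exon regions (1.02%, against 1.22%). Of these, 17, 37, 109 and 18 gained, or 29.3, 27.0, 88.6 and 51.4%. Over all gain regions in the lists the shares of gains were 27.5, 35.8, 84.3 and 48.0%, so the order of losses and gains was much the same. The median changes of exon regions were 12.4 to 15.6 points over the 4 lists.

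The share listed in spermatids differed by group, as it did over all gain regions. It was 15.3% (12.9 to 17.9%) of the late exon regions, 4.25% (3.49 to 5.16%) of the continuous and 4.43% (2.75 to 7.08%) of the early ones. Over all gain regions it was 19.1% of the late and 5.27% of the continuous ones, both above the exons. Of the 49 exon regions below 50% at PND5, 22 were listed (44.9%, 31.9 to 58.7%), near the 42.7% of all gain regions below 50%. Exon 1 regions were listed in 12.3% (8.17 to 18.0%) and later exons in 6.56% (5.76 to 7.46%). A level near the middle leaves room for a difference of 10 points in both directions, and the part of this in the shares was not tested.

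The largest spermatid differences lay in 8 late exon regions, whose listed spermatid regions overlap them but need not have identical ends. Some of these exon regions hold few CpGs: 5 in Sall1 and Slc12a5 and 6 in Lzts2 and Spata13, against 11 to 18 in the rest. Exon 3 of Lzts2, a suppressor of Wnt signalling, stood at 96.8% at PND5 and 96.7% at R9-12, at 47.6% at R13-14 and at 95.5% at R15-17. Exon 3 of Sall1, a zinc finger factor of kidney development, fell from 77.7% at R1-8 to 40.6% at R9-12. In Slc12a5, the neuronal potassium chloride cotransporter, exon 14 rose from 40.4% to 72.4% over that step and ended at 57.9% in spermatozoa. Exon 8 of Spag6, a protein of the sperm axoneme, fell from 80.1% at R9-12 to 48.8% at R13-14. Exon 2 of Spata13 stood at 32.4% at GD16, 1.9% at GD18, 1.5% at GD20, 35.4% at PND5, 66% at R9-12, 39% at R13-14 and 71.5% at R15-17. Exon 19 of Cpne4, a copine, fell from 61.8% at R13-14 to 21.1% at R15-17, and spermatozoa stood at 44.3%. Exon 13 of Impg1, a proteoglycan of the photoreceptor matrix, rose from 29.6% at R15-17 to 59.5% in spermatozoa. The single-exon region named Rpl37l1 moved between 51.1 and 83.6%, and reads of ribosomal protein genes and their copies may not be told apart.

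**Figure D5:**
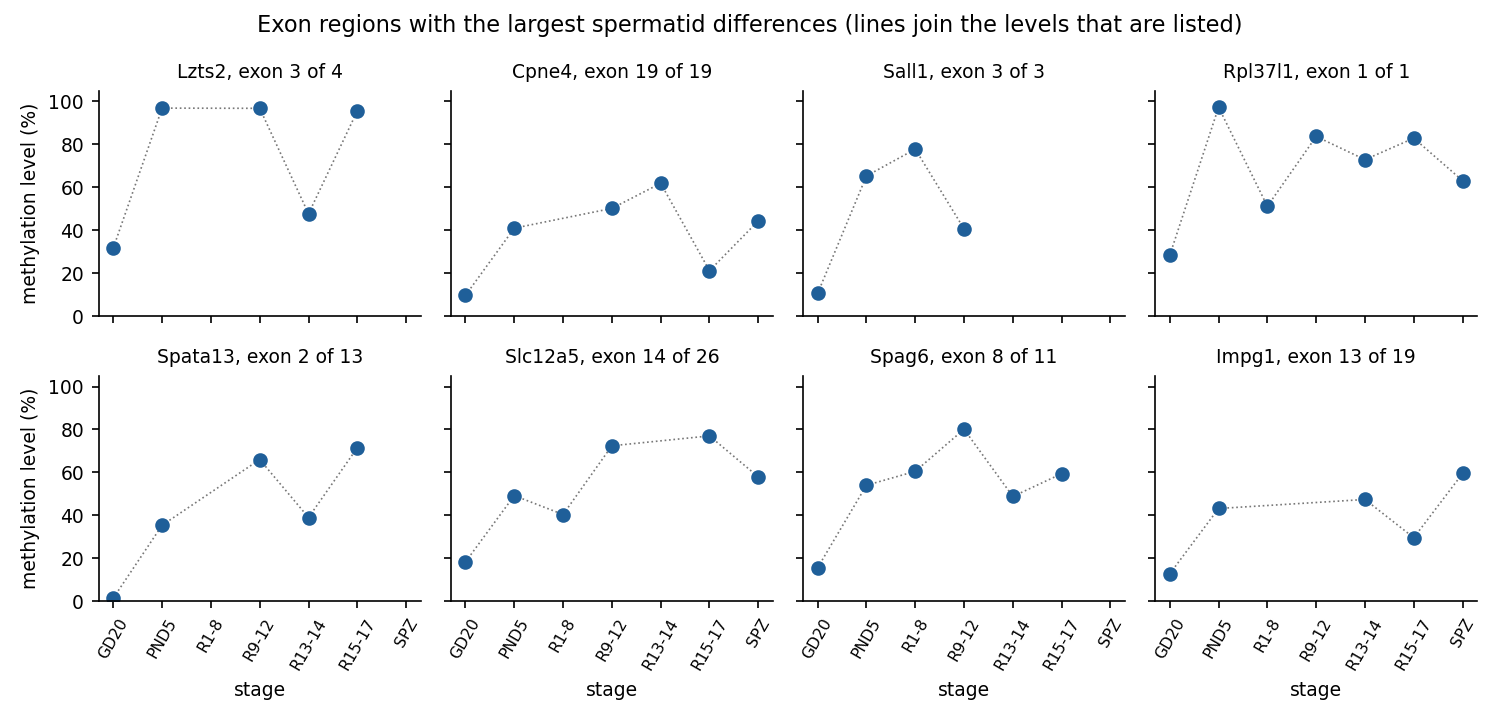
Authors' mean methylation level in percent by stage for the 8 exon regions with the largest difference in a spermatid list (SPZ, spermatozoa); dotted lines join the levels that are listed, and stages without a point were not listed for that region. Lzts2 drops to 47.6% at R13-14 and returns to 95.5%, while Cpne4 and Impg1 stay below 65% at each listed stage.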

How the data were processed

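The members and the gene lists were chosen with earlier results of these data known. The submitters' processing notes name Bismark 0.19.0 and Bowtie2. Not given in the sources used here are the genome build, the coverage minimum, the annotation tool and how stage means were formed. The authors deposited, per the file headers, the methylation level of each region in both stages as a fraction, the difference of the levels as a signed score, a p-value and an adjusted p-value. Levels are printed as percentages. Regions of at least 50 bp were sought per the labels, and 10 exon regions are shorter.

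Annotated starts minus 1 were matched to the region lists, and 1 exon region found no level. Symbols came from a RefSeq table of GRCr8. Regions of other lists were matched where they shared 1 bp or more. Named genes were, with at least 5 CpGs and 1 region a gene, the 8 largest gains per step and exon class, up to 4 per gene list, the 5 genes with most regions, the 8 largest spermatid differences, up to 8 regions of the GD16 list and the 3 smallest gains. Further regions of named genes, and those below 50% at PND5, were named after their values were seen. Shares carry Wilson 95% intervals. Scripts were tested on simulated data. Python 3.11.15 with pandas 2.3.3, numpy 2.4.6 and scipy 1.17.1 was used. Alternatives were stricter thresholds, 1 region per exon or gene, other transcript sets and other overlaps.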

Additional observations from a re-analysis of the deposited data

How the results depend on the processing

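Of 86 alternative values over 11 results, 80 stayed within the main interval or within 1.5 times the main count, 6 moved and 0 reversed. Part of the 80 could hardly move, so the tally does not measure robustness. Keeping only NM and NR transcripts and matching by other overlaps left every value unchanged. A limit of 5 CpGs, which the lists already apply, left 3417 of 3418 regions. The count of 2478 with 1 region per gene symbol is within the 1.5-fold limit. The share of exon regions in exon 1 was 5.89% with 1 region per gene symbol and 2.93% without single-exon transcripts. The median gain from GD18 to GD20 was 47.2 points with 1 region per gene symbol. Of the alternatives added after seeing the data, the late share of exons 2 and 3 exceeded that of exon 11 and later by 6.93 points in transcripts of at least 10 exons, and exon 1 exceeded later exons by 33.8 points at or above the median CpG density and by 10.1 points below it. No paired analysis was possible because the region lists hold stage means, so no replicate could be left out either. The depth behind a level is unknown.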

Other observations

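The X chromosome held 36 exon regions, with a median of 41% at GD20 and 96.7% at PND5. Of these, 13 were late (36.1%, 95% Wilson interval 22.5 to 52.4%), and the interval includes the 23.4% of all exon regions. The late share of all gain regions by chromosome was not computed, so these shares cannot be read as particular to exons. On the autosomes the late share lay between 17.0% on chromosome 12 and 30.9% on chromosome 13. The genes below were named after their values were seen. Wdr13, a WD-repeat gene, held a late region in exon 4 that rose from 9.8% to 50.7% and a continuous one in exon 5 that went from 57.4% to 96.6%. Exon 3 of Suv39h1, a histone H3 lysine 9 methyltransferase, stood at 66.7% at GD20 and 97.7% at PND5. Exon 1 of Pcdh19, a protocadherin of neurons, rose from 14.8% to 70.2%, and the single exon of Magee2 from 16.9% to 47.5%.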
